A study of Mus musculus with 16 samples.

Results

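The miR-30 family is a set of microRNAs that share the same seed, the bases near the 5′ end through which a microRNA pairs with its target messenger RNAs. Here it was followed through 7 mature arms: miR-30a-5p (MIMAT0000128), miR-30b-5p (MIMAT0000130), miR-30c-5p (MIMAT0000514), miR-30d-5p (MIMAT0000515), miR-30e-5p (MIMAT0000248), miR-30a-3p (MIMAT0000129) and miR-30e-3p (MIMAT0000249). They were chosen by name and by their miRBase identifiers and not by a cutoff on their values, but with earlier results of these data known. They are 7 of the 853 mature microRNAs in the deposited count table. All 7 passed the filter on low counts, which left 255 microRNAs to test.

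Small RNA was sequenced from cDC1s, conventional dendritic cells of type 1, which excel at presenting antigen taken up from other cells to CD8 T cells. They were sorted from spleens of C57BL6 mice. The 16 libraries formed 4 groups of 4. The first was deficient in both Ire1a and Xbp1 (Xbp1-Ire1 KO, called compound-deficient here), the second was the WT group of that line (Ire1Xbp1 WT), the third was Xbp1-deficient (Xbp1 KO), and the fourth was the WT group of the Xbp1 line (Xbp1 WT). No treatment is labelled for any group. The sources used here do not give the promoter that drives any Cre, or the age and sex of the mice. Nor is it stated that each replicate is a mouse of its own, so a p-value measures the spread between these samples only, and that spread may be technical.

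The libraries held 175165 to 1403393 microRNA reads, and the smallest was compound-deficient replicate 4. Each was made from 5000 to 50000 sorted cells, with no number given for a single sample. In such bulk samples, a change in the mix of cells and a change in RNA per cell cannot be told apart. The files name microRNAs by identifier alone, so microRNA markers of other cell types were not matched and the cDC1 label was not checked here. The deleted genes make messenger RNAs and a microRNA table cannot show them, so the genotypes rest on the labels alone.

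A microRNA is cut from a hairpin precursor by Drosha in the nucleus and Dicer in the cytoplasm. One arm of the resulting duplex, the guide, stays in an Argonaute protein and represses messenger RNAs, while the other arm, the passenger, is mostly degraded. In the miR-30 family the 5p arm is the usual guide. Family members are known to repress the mRNAs of the autophagy protein Beclin 1 and of the transcription factor BLIMP1 (PRDM1) in human cells. IRE1 senses stress in the endoplasmic reticulum, and its ribonuclease splices Xbp1 mRNA, which lets the transcription factor XBP1 be made. That ribonuclease has been reported to cleave some microRNA precursors. The passenger strand of the human MIR30C2 hairpin has been reported to repress XBP1 mRNA. That arm was not matched to a row of the count table and is not analysed here.

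The guide arms are shown first, because their near identity bears on how reads can be assigned among them. They are written 5′ to 3′, with the seed (bases 2 to 8) in capitals, as listed by RefSeq for build GRCm38.p6. Of the 7 members, 5 were matched there; miR-30b-5p and miR-30d-5p are named only.
miR-30a-5p: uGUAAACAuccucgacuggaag
miR-30c-5p: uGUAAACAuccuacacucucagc
miR-30e-5p: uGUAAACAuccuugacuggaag

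These 3 guides had the same seed, GUAAACA, which 4 of 1679 microRNA names in that table carried (0.238%). The fourth name was miR-384-5p, which was not matched to a row of the count table. Counting from 1 at the 5′ end, miR-30a-5p and miR-30e-5p differed at 1 base, C13U. The guides miR-30a-5p and miR-30c-5p differed at 5 of 22 compared bases (C13A, G14C, G18C, G19U and A20C), and miR-30c-5p was 1 base longer. The sources used here do not say how many mismatches were allowed or how reads matching several microRNAs were treated. The split of reads between miR-30a-5p and miR-30e-5p is therefore uncertain to the extent that a read with an error at that base could be given to either.

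The passenger arms that could be matched are those of the same 2 hairpins, and they also differ from each other at 1 base, G18A. Their own seed, UUUCAGU, differs from that of the guides, so the passenger arms pair with other target sequences.
miR-30a-3p: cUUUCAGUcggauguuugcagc
miR-30e-3p: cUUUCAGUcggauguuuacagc

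Both arms are set in their hairpins below, with the mature arms in capitals and the 5p arm first, since the arm ratios given further on compare these stretches of 1 precursor.
Mir30a: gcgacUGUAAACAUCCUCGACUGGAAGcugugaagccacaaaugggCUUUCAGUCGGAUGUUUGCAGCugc
Mir30e: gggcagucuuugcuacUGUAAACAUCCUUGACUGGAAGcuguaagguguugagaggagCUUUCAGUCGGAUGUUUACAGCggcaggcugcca

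The Mir30a hairpin lies at chr1:23272269-23272339 on the plus strand, and the Mir30e hairpin at chr4:120772606-120772697 on the minus strand (GRCm38). Mir30e sits in an intron of Nfyc, which encodes a subunit of the transcription factor NF-Y and is transcribed from the same strand. Mir30c-1, at chr4:120769534-120769622, lies in an intron of the same gene, 2983 bases away from Mir30e. Mir30c-2, at chr1:23291701-23291784, is 19361 bases away from Mir30a and overlaps an exon of the long noncoding RNA Gm27028. The mature miR-30c-5p sequence is the same from both of its hairpins, so its counts cannot be divided between the 2 loci.

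All 5 guides were well expressed in every group, and miR-30d-5p led them. Levels are given in CPM, reads put on a common library size after TMM scaling, which assumes that most microRNAs do not change. The guide miR-30d-5p had 21790.1, 29117, 24222 and 23353 CPM in compound-deficient replicates 1 to 4, against 25142, 19279, 23562 and 29471 CPM in replicates 1 to 4 of their WT group. It had 17819, 17387, 18871 and 23718 CPM in Xbp1 KO replicates 1 to 4, against 20652, 18051, 20589.8 and 25725 CPM in Xbp1 WT replicates 4, 5, 6 and 8. Within each line the ranges of deficient and WT libraries overlapped. By mean CPM it ranked 10 or 11 among the 255 tested microRNAs in every group.

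The guide miR-30e-5p, from the Nfyc intron, came second. It had 9275, 13761, 10344 and 11304 CPM in compound-deficient replicates 1 to 4, against 12024, 8647, 10776 and 14199 CPM in their WT group. It had 8757, 8226, 8357 and 12298 CPM in Xbp1 KO libraries, against 10374, 8325, 11026 and 11521 CPM in Xbp1 WT libraries. Replicate 4 stood above the other 3 Xbp1 KO libraries, and the groups overlapped within both lines.

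The other 3 guides followed in the order miR-30c-5p, miR-30a-5p and miR-30b-5p. The guide miR-30c-5p, made from 2 hairpins, averaged 4709 ± 1285 CPM in compound-deficient cells, 4315 ± 986 in Ire1Xbp1 WT cells, 3773 ± 878 in Xbp1 KO cells and 3415 ± 667 in Xbp1 WT cells (SD, n = 4 each). The guide miR-30a-5p averaged 2578 ± 562 CPM in compound-deficient cells, 2708 ± 911 in Ire1Xbp1 WT cells, 2330.5 ± 422 in Xbp1 KO cells and 2548 ± 707 in Xbp1 WT cells (SD, n = 4 each). The guide miR-30b-5p averaged 1056 ± 151 CPM in compound-deficient cells, 1090.2 ± 159.7 in Ire1Xbp1 WT cells, 1089 ± 122 in Xbp1 KO cells and 989 ± 122 in Xbp1 WT cells (SD, n = 4 each). The order of all 5 guides was the same in 15 of 16 libraries. In Xbp1 WT replicate 6, miR-30a-5p (2868 CPM) lay just above miR-30c-5p (2853 CPM).

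**Figure D1:**
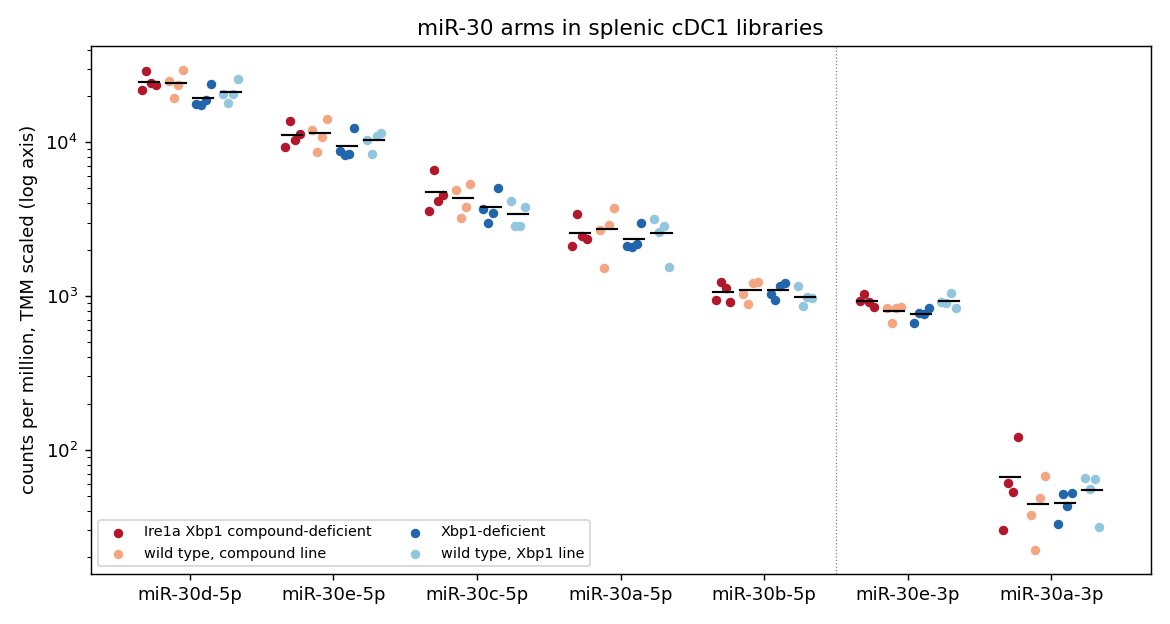
Level of each miR-30 arm in every library, in TMM-scaled CPM on a log axis, with 1 point per library coloured by genotype and the 5p and 3p arms split by the dotted line. The arms keep their order in all 4 groups, with miR-30d-5p between 17387 and 29471 CPM and miR-30a-3p between 22.4 and 122 CPM.

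Neighbours in that order were well apart where miR-30d-5p and miR-30e-5p are concerned: the lowest miR-30d-5p value of any library, 17387 CPM, was above the highest of miR-30e-5p, 14199 CPM. The lowest miR-30e-5p value, 8226 CPM, was also above the highest of miR-30c-5p, 6543 CPM. The values of miR-30c-5p and miR-30a-5p overlapped across libraries, as did those of miR-30b-5p and the passenger miR-30e-3p. Levels of different microRNAs also carry their own ligation and amplification efficiencies, so the order describes reads and not molecules.

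As a whole, the 7 members took 3.09% to 5.58% of the reads of a library, with a median of 4.11% over the 16 libraries. The share averaged 4.44% ± 0.655 in compound-deficient cells, 4.72% ± 0.655 in Ire1Xbp1 WT cells, 3.47% ± 0.615 in Xbp1 KO cells and 4.00% ± 0.447 in Xbp1 WT cells (SD, n = 4 each). Deficient and WT libraries overlapped in both lines. These shares are of raw reads and move with every other microRNA in the library. They are given without a test, since they sum chosen members.

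Each guide's share of guide reads was more even between replicates than its level, by a wide margin for miR-30d-5p and miR-30e-5p and less so for the others. Over the 16 libraries, miR-30d-5p made up 55.2% ± 1.92 of guide reads, miR-30e-5p 26.0% ± 1.07, miR-30c-5p 9.90% ± 1.14, miR-30a-5p 6.27% ± 1.16 and miR-30b-5p 2.64% ± 0.359 (SD, n = 16). The SD within groups on the log2 scale was 0.214 for the level of miR-30d-5p and 0.0514 for its share of the guides. For miR-30e-5p these were 0.258 for the level and 0.0570 for the share, and for miR-30c-5p 0.329 and 0.15. The gap was small for miR-30a-5p, at 0.406 for the level and 0.323 for the share, and for miR-30b-5p, at 0.192 and 0.155. Part of this evenness is arithmetic, since miR-30d-5p is most of the sum that its share is taken of.

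**Figure D2:**
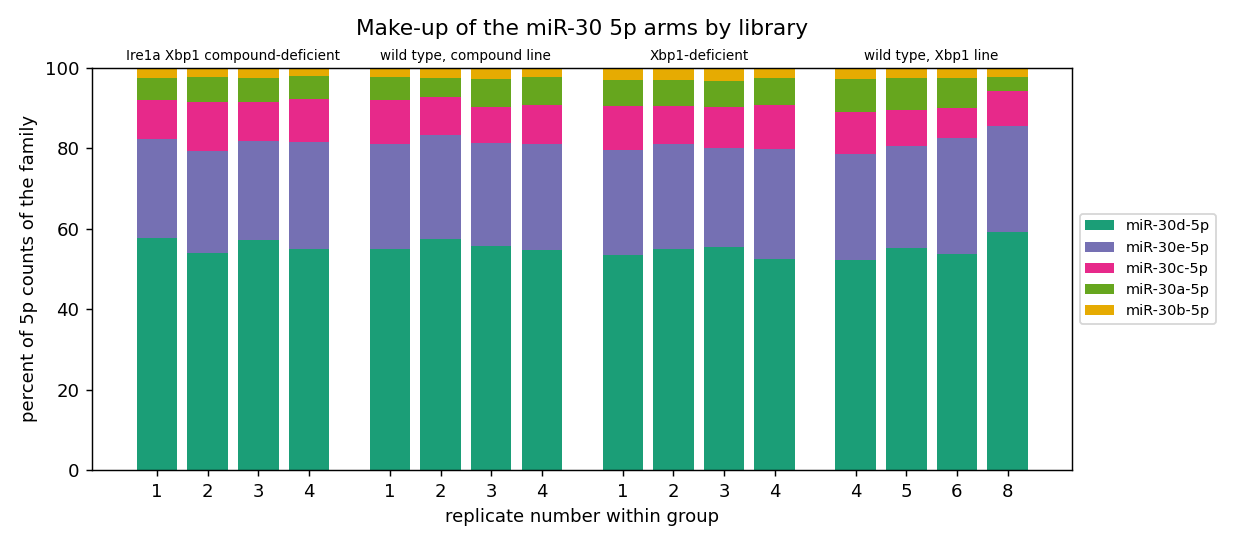
Share of guide (5p) reads taken by each of the 5 miR-30 guides, in percent, as 1 stacked bar per library grouped by genotype. The share of miR-30d-5p lies between 52.3% and 59.1% in all 16 libraries, and that of miR-30a-5p is lowest in Xbp1 WT replicate 8, at 3.54%.

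The guides also tended to be high or low in the same libraries. All 5 were highest in replicate 2 of the compound-deficient group, replicate 4 of its WT group and replicate 4 of the Xbp1 KO group. All 5 were lowest in Ire1Xbp1 WT replicate 2 and in Xbp1 KO replicate 2. Depth and scaling are common to all microRNAs of a library, and some outside the family lay near the summed guides in profile, as given further on. Ire1Xbp1 WT replicate 4 (332923 reads), Xbp1 KO replicate 4 (783372) and Xbp1 WT replicate 8 (400210) were the smallest libraries of their groups. Compound-deficient replicate 2 held 381259 reads, and only replicate 4 of that group was smaller. Ire1Xbp1 WT replicate 2 (496048) and Xbp1 KO replicate 2 (969371), where the guides were lowest, were not the largest of their groups. The part of depth and scaling in this pattern was not tested. The Xbp1 WT group was mixed: miR-30d-5p and miR-30e-5p were highest in replicate 8, whereas miR-30a-5p was lowest there, with 1540.3 CPM against 3159, 2624 and 2868 CPM in replicates 4, 5 and 6 of the same group.

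That low value was shared by the other arm of the same hairpin. The passenger miR-30a-3p had 31.5 CPM in Xbp1 WT replicate 8, against 66.1, 56.0 and 65.1 CPM in replicates 4, 5 and 6. The replicate with the lowest miR-30a-5p of the Ire1Xbp1 WT group, replicate 2 with 1519 CPM, also had the lowest miR-30a-3p, with 22.4 CPM. The counts behind these 2 passenger values were 13 reads each. Ire1Xbp1 WT replicate 2 was the lowest of its group for every member, and miR-30e-3p was also lowest in Xbp1 WT replicate 8. In Xbp1 KO libraries both Mir30a arms were highest in replicate 4, but miR-30a-5p was lowest in replicate 2 and miR-30a-3p in replicate 1. In compound-deficient libraries both were lowest in replicate 1, but miR-30a-5p was highest in replicate 2 and miR-30a-3p in replicate 4.

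Between the deficient genotypes, the guide shares of miR-30b-5p and miR-30a-5p lay apart. The share of miR-30b-5p was 2.51%, 2.28%, 2.67% and 2.15% of guide reads in compound-deficient replicates 1 to 4, against 3.08%, 3.00%, 3.43% and 2.69% in Xbp1 KO replicates 1 to 4. The share of miR-30a-5p was 5.59%, 6.28%, 5.81% and 5.54% in compound-deficient replicates 1 to 4, against 6.37%, 6.56%, 6.36% and 6.55% in Xbp1 KO replicates 1 to 4. For miR-30b-5p the gap between the nearest libraries, 2.67% and 2.69%, was small. The other guides' shares overlapped between these genotypes, and each guide's share overlapped within both lines and between the WT groups. In CPM, the levels of miR-30a-5p and of miR-30b-5p overlapped between these genotypes. The log2 fold change of compound-deficient over Xbp1 KO cells was 0.15 for miR-30a-5p and -0.04 for miR-30b-5p, beside 0.34 for miR-30d-5p. A guide's share moves with the other guides as well as with its own level. These shares were not tested, and no share of this kind was computed for other microRNAs to set beside them.

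No member of the family differed between compound-deficient cells and their WT group by the test across all microRNAs. In this comparison, which asks what the joint loss of IRE1 and XBP1 does, edgeR's quasi-likelihood test called 0 of the 7 members at a Benjamini-Hochberg adjusted p under 0.05, against 5.88% of all 255 microRNAs tested. At an unadjusted p under 0.05, 0 members passed, against 20.0% of all. DESeq2 and limma called 0 members as well. Log2 fold changes of the 5 guides, with 2 above and 3 below 0, ran between -0.07 and 0.13, and the median over the 7 members was 0.02, beside 0.04 over all microRNAs tested. With upper-quartile scaling the 5 guides lay between -0.32 and -0.14, while the median of all microRNAs moved to -0.24, so their place relative to the other microRNAs changed little.

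Under TMM scaling, and given the spread between these samples, the intervals show how large a change in the guides remains possible. They do not cover the shift that another scaling brings. The most abundant guide, miR-30d-5p, averaged 24620.3 ± 3162 CPM in compound-deficient cells and 24364 ± 4211 in their WT cells (SD, n = 4 each), a log2 fold change of 0.02 with a 95% interval of -0.29 to 0.32. For miR-30e-5p, with 11171 ± 1915 CPM in compound-deficient cells and 11411 ± 2323 in their WT cells (SD, n = 4 each), the log2 fold change was -0.03 with an interval of -0.39 to 0.33. For miR-30a-5p the interval was wider, -0.58 to 0.44.

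Loss of Xbp1 alone likewise moved no guide past the test. Against the WT group of the Xbp1 line, edgeR's quasi-likelihood test called 0 of the 7 members at an adjusted p under 0.05, against 2.35% of all microRNAs tested; DESeq2 and limma also called 0 members. Guide log2 fold changes ran between -0.13 and 0.14, with 2 above and 3 below 0. The median over the 7 members was -0.13, beside -0.07 over all microRNAs tested. For miR-30d-5p, with 19449 ± 2914 CPM in Xbp1 KO cells and 21255 ± 3217 in Xbp1 WT cells (SD, n = 4 each), the log2 fold change was -0.13 with a 95% interval of -0.43 to 0.18.

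The member nearest to the threshold in this comparison was the passenger arm of the Mir30e hairpin. The passenger miR-30e-3p had 671, 769.6, 762 and 831 CPM in Xbp1 KO replicates 1 to 4, against 917, 906, 1046 and 836 CPM in Xbp1 WT replicates 4, 5, 6 and 8. Each Xbp1 KO library lay below each Xbp1 WT library, by a small margin between the nearest, 831 and 836 CPM. It was the only member whose ranges did not overlap here, and ranges did not overlap for 11.8% of all microRNAs tested. Its log2 fold change was -0.29 ± 0.13 (SE), with an unadjusted p of 0.0409 and an adjusted p of 0.289 by edgeR's quasi-likelihood test, so it was not called. An unadjusted p under 0.05 was reached by 1 of the 7 members and by 15.7% of all microRNAs.

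In the compound-deficient line the same passenger arm lay on the other side. There miR-30e-3p had 930.4, 1031, 916 and 846 CPM in compound-deficient replicates 1 to 4, against 840.1, 671, 840.1 and 842 CPM in replicates 1 to 4 of the WT group. The ranges again did not overlap, which held for this 1 member and for 9.80% of all microRNAs, and the nearest libraries were 846 and 842 CPM. The log2 fold change was 0.22 ± 0.13 (SE), with an adjusted p of 0.402 by edgeR's quasi-likelihood test. Leaving out a single library moved it to as little as 0.08, without compound-deficient replicate 2, and it was 0.15 without Ire1Xbp1 WT replicate 2. With upper-quartile scaling it was -0.04.

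The difference between the 2 lines' changes was tested directly. For miR-30e-3p the compound-deficient change minus the Xbp1 KO change was 0.51 on the log2 scale (95% interval 0.12 to 0.90), with an unadjusted p of 0.0133 and an adjusted p of 0.293 by edgeR's quasi-likelihood test. It had the eleventh smallest p of 255 and was not called. None of the 7 members was called in this test, in which 0% of all microRNAs were called, and an unadjusted p under 0.05 was reached by 1 member and by 10.2% of all. Among the guides the difference ran between -0.18 for miR-30b-5p and 0.14 for miR-30d-5p, with 3 above and 2 below 0; with upper-quartile scaling, which moved the median of all microRNAs to -0.36, all 5 were below 0. For miR-30e-3p the difference was 0.12 with that scaling.

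**Figure D3:**
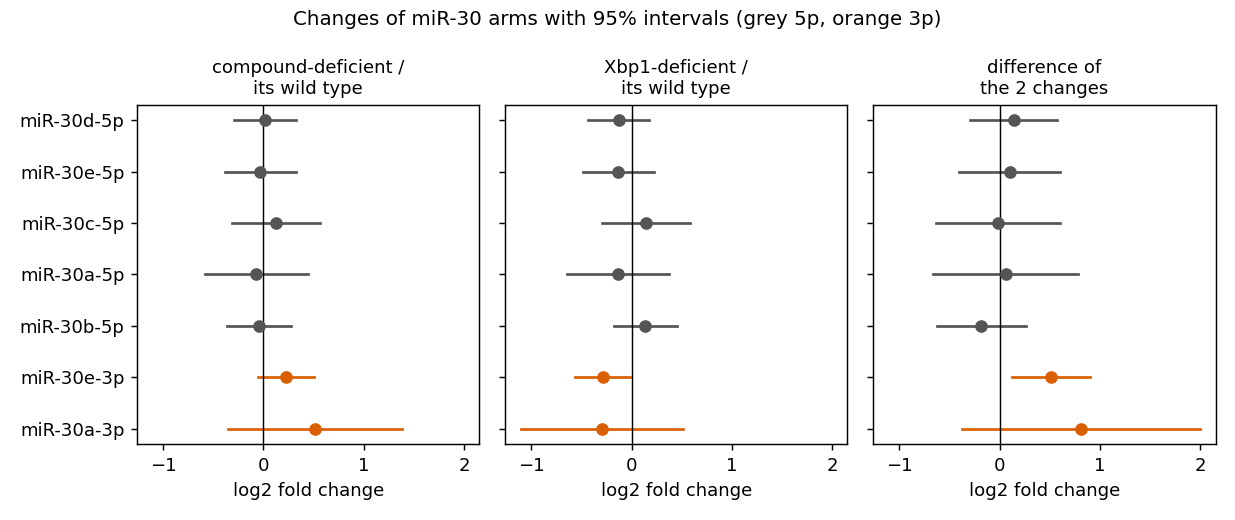
Log2 fold change of each miR-30 arm (points) with its 95% interval (bars) from the edgeR fit of all 16 libraries, 1 panel per comparison, with 5p arms in grey and 3p arms in orange. Guides lie between -0.13 and 0.14 in both comparisons of a deficient genotype with its WT group, and miR-30e-3p lies at -0.29 for Xbp1 KO and at 0.22 for compound-deficient cells.

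The passenger miR-30a-3p was the rarest member and the most variable between replicates. It rested on 13 to 70 reads per library and averaged 66.5 ± 39.0 CPM in compound-deficient cells, 44.2 ± 19.1 in Ire1Xbp1 WT cells, 45.1 ± 9.17 in Xbp1 KO cells and 54.7 ± 16.1 in Xbp1 WT cells (SD, n = 4 each). The compound-deficient mean included 122 CPM in replicate 4, the shallowest library, where 23 reads were counted. The log2 fold change was 0.52 with a 95% interval of -0.35 to 1.38 for compound-deficient against WT cells, and -0.30 with an interval of -1.11 to 0.51 for Xbp1 KO against Xbp1 WT cells. Without compound-deficient replicate 4 the first of these values was 0.11. Both intervals include 0, and neither fold change was called.

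The compound-deficient and Xbp1 KO groups were also compared with each other, which sets loss of both genes against loss of Xbp1 alone but also sets 1 line against another. Of the 7 members, 6 had a log2 fold change above 0, as did 155 of all 255 microRNAs tested. The median was 0.30 over the members, beside 0.13 over all microRNAs tested. With upper-quartile scaling miR-30a-5p was below 0 as well, at -0.10, and the median of all was -0.11. The members share libraries and scaling, so their signs are not independent. None was called by edgeR's quasi-likelihood test, against 7.45% of all, and none by DESeq2 or limma. An unadjusted p under 0.05 was reached by 2 members and by 17.3% of all microRNAs.

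These 2 members were the leading guide and the Mir30e passenger. The guide miR-30d-5p averaged 24620.3 ± 3162 CPM in compound-deficient cells and 19449 ± 2914 in Xbp1 KO cells (SD, n = 4 each), a log2 fold change of 0.34 ± 0.15 (SE) with an adjusted p of 0.213 by edgeR's quasi-likelihood test. Leaving out single libraries gave 0.19 (without compound-deficient replicate 2) to 0.44 (without Xbp1 KO replicate 4). Its ranges overlapped, since Xbp1 KO replicate 4 at 23718 CPM lay above 2 of the compound-deficient libraries. With the total count of a library as a covariate the value was 0.15, with an adjusted p of 0.776; compound-deficient libraries held 175165 to 978134 reads and Xbp1 KO libraries 783372 to 1403393. The passenger miR-30e-3p had a log2 fold change of 0.30 ± 0.13 (SE), with an adjusted p of 0.238 by the same test, and was at 0.18 without compound-deficient replicate 2. Its ranges did not overlap, as for 11.8% of all microRNAs, and the nearest libraries were 846 CPM in compound-deficient and 831 CPM in Xbp1 KO cells.

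The WT groups of the 2 lines give the difference between lines without any deletion. The 5 guides had log2 fold changes between 0.08 and 0.34 for Ire1Xbp1 WT over Xbp1 WT, all above 0. Of all 255 microRNAs tested, 128 were above 0. The median over the 7 members was 0.14, beside 0.00 over all microRNAs tested. The sign of miR-30a-5p did not hold: it was at -0.03 without the filter on low counts, -0.11 without Ire1Xbp1 WT replicate 4 and -0.09 without Xbp1 WT replicate 8. None of the members was called by edgeR's quasi-likelihood test, DESeq2 or limma. Here 0% of all microRNAs were called by edgeR, and at an unadjusted p under 0.05 the count was 0 members, against 9.41% of all. For miR-30d-5p the log2 fold change was 0.20 between the WT groups, beside 0.34 between the deficient genotypes. For miR-30c-5p these values were 0.34 between the WT groups and 0.32 between the deficient genotypes, with ranges of 0.21 to 0.46 and 0.07 to 0.49 as single libraries were left out; the lowest were without Ire1Xbp1 WT replicate 4 and without compound-deficient replicate 2. For miR-30d-5p the value between the WT groups was as low as 0.09, also without Ire1Xbp1 WT replicate 4. For miR-30e-3p they had opposite signs, -0.22 between the WT groups and 0.30 between the deficient genotypes. No member's ranges failed to overlap between the WT groups, and ranges did not overlap for 4.31% of all microRNAs.

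Guide reads far outnumbered passenger reads at both hairpins with 2 matched arms, and more so at Mir30a than at Mir30e. Within a library, miR-30a-5p had 51.7 ± 12.6 reads for each read of miR-30a-3p, and miR-30e-5p had 12.4 ± 2.01 reads for each read of miR-30e-3p (SD, n = 16). The lowest Mir30a ratio, 19.0, was above the highest Mir30e ratio, 16.8. Together the 2 passenger arms made up 1.66% to 2.86% of the family's reads. A ratio within a library needs no scaling between libraries. The passengers differ at 1 base, and miR-30e-3p had 160 to 987 reads where miR-30a-3p had 13 to 70. Reads of miR-30e-3p given to miR-30a-3p would lower the Mir30a ratio. The guides of these hairpins also differ at 1 base, and miR-30e-5p averaged 10576 CPM over all libraries against 2541 for miR-30a-5p. Reads of miR-30e-5p given to miR-30a-5p would raise the Mir30a ratio. How often either happened was not tested.

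By group, the Mir30e ratio averaged 12.0 ± 1.65 in compound-deficient cells, 14.2 ± 1.88 in Ire1Xbp1 WT cells, 12.4 ± 1.93 in Xbp1 KO cells and 11.2 ± 1.93 in Xbp1 WT cells (SD, n = 4 each). The Mir30a ratio averaged 46.9 ± 21.0 in compound-deficient cells, 61.7 ± 6.69 in Ire1Xbp1 WT cells, 52.2 ± 10.3 in Xbp1 KO cells and 46.2 ± 1.74 in Xbp1 WT cells (SD, n = 4 each). The wide spread of the compound-deficient group came with its replicate 4, which had 445 reads of miR-30a-5p and 23 of miR-30a-3p. There the passenger made up 4.91% of the hairpin's reads, with a 95% Wilson interval of 3.30% to 7.27% that covers counting error only. In the other 15 libraries that share was 1.38% to 2.45%.

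**Figure D4:**
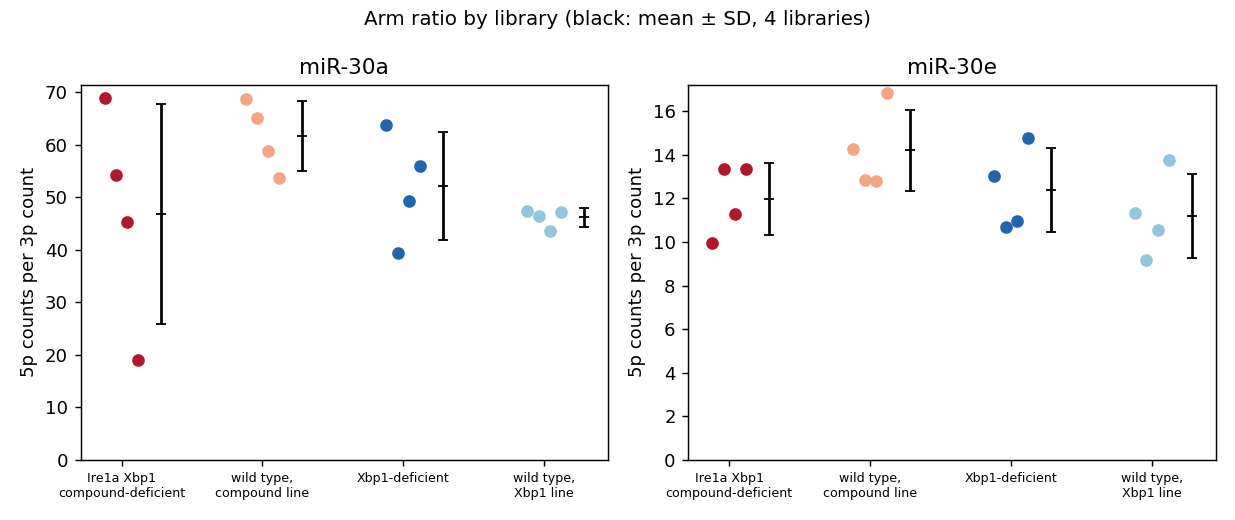
Reads of the 5p arm for each read of the 3p arm at the Mir30a and Mir30e hairpins, on a linear axis that starts at 0, with 1 point per library and the mean ± SD of 4 libraries in black. The Mir30a ratio is 53.7 to 68.8 in Ire1Xbp1 WT libraries and 43.7 to 47.5 in Xbp1 WT libraries, and a single compound-deficient library lies at 19.0.

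Each comparison of arm ratios used an exact permutation test, two-sided, in which 4 against 4 libraries cannot give a p under 0.0286, with Benjamini-Hochberg adjustment over 8 tests. For compound-deficient against WT cells the difference in log2 ratio was -0.54 at Mir30a (exact p = 0.257, adjusted 0.514) and -0.25 at Mir30e (exact p = 0.171, adjusted 0.457). Without compound-deficient replicate 4 the Mir30a difference was -0.15. For Xbp1 KO against Xbp1 WT cells it was 0.15 at Mir30a (exact p = 0.343, adjusted 0.549) and 0.15 at Mir30e (exact p = 0.429, adjusted 0.571). The ranges of deficient and WT libraries overlapped in each of these 4 comparisons. Between compound-deficient and Xbp1 KO cells the difference was -0.28 at Mir30a (exact p = 0.657, adjusted 0.743) and -0.04 at Mir30e (exact p = 0.743, adjusted 0.743).

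The Mir30a ratios of the WT groups did not overlap, though the difference did not pass the threshold after adjustment. It was 68.8, 65.2, 58.9 and 53.7 in Ire1Xbp1 WT replicates 1 to 4, against 47.5, 46.5, 43.7 and 47.1 in Xbp1 WT replicates 4, 5, 6 and 8. Each Ire1Xbp1 WT library lay above each Xbp1 WT library, with a difference of 0.41 in log2 ratio and an exact p of 0.0286, the smallest that this design allows, which was 0.229 after adjustment. The Ire1Xbp1 WT ratios rest on 13 to 45 passenger reads each. At Mir30e the difference between the WT groups was 0.35 (exact p = 0.0857, adjusted 0.343), and the ranges overlapped.

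The difference between the 2 lines' changes in ratio was set against all 4900 relabelings of libraries within both lines, a test chosen after the ratios were seen. These relabelings assume no change in either line and a like spread in the groups, so the p does not test equal changes as such. The spreads were unlike at Mir30a, with a log2 SD of 0.81 in compound-deficient and 0.055 in Xbp1 WT libraries. The compound-deficient change minus the Xbp1 KO change in log2 ratio was -0.69 at Mir30a (exact p = 0.0951) and -0.39 at Mir30e (exact p = 0.0837). Both were 0.238 after adjustment over 10 tests. Without compound-deficient replicate 4 the Mir30a value was -0.30 (exact p = 0.191, unadjusted), and without any other single library it lay between -0.92 and -0.58. The unadjusted exact p at Mir30a ran from 0.0159 (without compound-deficient replicate 1) to 0.219 (without Ire1Xbp1 WT replicate 1). At Mir30e, leaving out single libraries gave -0.50 to -0.30. There the unadjusted exact p ran from 0.0286 (without Xbp1 WT replicate 8) to 0.178 (without Xbp1 KO replicate 4). The sign was the same at both hairpins, and neither passed the threshold after adjustment.

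Apart from miR-30a-3p, the family's arms varied less between replicates than the median microRNA. The SD within groups on the log2 scale was 0.136 for miR-30e-3p, and only 7 of the 255 microRNAs tested were more even. It was 0.192 for miR-30b-5p, 0.214 for miR-30d-5p, 0.258 for miR-30e-5p, 0.329 for miR-30c-5p and 0.406 for miR-30a-5p, beside a median of 0.504 over all microRNAs tested. The passenger miR-30a-3p, at 0.593, was above that median. Abundant microRNAs carry less counting error, and the evenness was not compared with microRNAs matched for level.

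Of the 248 other microRNAs tested, the nearest in profile to the summed guides were MIMAT0003475, MIMAT0000215 and MIMAT0000530, which the files do not pair with names. Nearness was the root mean square difference of log2 CPM, each centred on its mean over the 16 libraries. The difference was 0.129 for MIMAT0003475, 0.140 for MIMAT0000215 and 0.159 for MIMAT0000530, beside a median of 0.594 over the 248. The log2 CPM of the summed guides itself had an SD of 0.242 over the 16 libraries, and the median SD of the 248 was 0.543. A microRNA that varies little can therefore lie near the guides without following them. All libraries enter this measure with their depth and scaling in common, and it is a description only.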

How the data were processed

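The authors deposited raw read counts, 1 row for each of 853 mature microRNAs with its miRBase identifier, and log2 values for 473 of them, all 7 members included. The scaling behind the deposited log2 values is not stated. The submitters' processing notes list Bowtie 1.1.2, limma 3.42.2, cutadapt 1.8.1 and FastQC 0.11.3, along with the builds GRCm38 and mm10, and give no roles. Per the labels' protocols, libraries came from a TruSeq small RNA kit and were size selected; no molecular identifiers are named, so counts may include PCR copies.

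Raw counts were tested with edgeR 4.0.16 (R 4.3.3). Scaling was by TMM. The filter was filterByExpr by group, with a count minimum of 10. A single quasi-likelihood fit took in the 16 libraries, with a mean for each of the 4 groups, and its F tests were two-sided. A call needed a Benjamini-Hochberg adjusted p under 0.05 over the 255 microRNAs tested. The other 598 held a trace of the reads, since the tested ones held at least 99.865% in any library. The common biological coefficient of variation was 31.2%. A standard error is the log2 fold change divided by the root of its F value. Log2 CPM used a prior count of 1. Arm ratios used (5p count + 0.5)/(3p count + 0.5). The steps were tested on simulated data. Replicates differed by more than counting noise, so each library was taken as separate.

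The microRNAs named are the 7 given arms, plus the 3 nearest to the summed guides in profile. Members and lists were chosen with earlier results of these data known. Other arms of the family, other microRNAs with its seed and markers of other cell types were to be added by name, but could not be matched to identifiers and are not analysed here. Sequences are from RefSeq and overlapping genes from the GENCODE annotation, both on GRCm38. Alternatives were other scalings and filters, DESeq2 1.42.0, limma 3.58.1, a fit of the compared groups alone, total count as a covariate, thinning, a replicate block and leaving out each library.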

Additional observations from a re-analysis of the deposited data

Results flagged for a closer look

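Among 40 sets of 4 values (each arm's log2 CPM, each hairpin's log2 arm ratio and the family's share of reads, in each group), 4 held a library set apart from the other 3 by a larger part of the set's range than Dixon's 95% critical value allows. Chance does this in about 1 of 20 sets. The passenger miR-30e-3p was at 9.39 log2 CPM in Ire1Xbp1 WT replicate 2, while the other 3 were at 9.72, and this gap spans 0.988 of the range; this library is the lowest of the group for all 7 members. The guide miR-30a-5p was at 11.53 in Xbp1 KO replicate 4, against 11.02 to 11.08 in the others, a gap of 0.881. The guide miR-30e-5p was at 13.59 in the same library, against 13.01 to 13.10, a gap of 0.844. The family's share of reads was also highest there, 4.39% (95% Wilson interval 4.35% to 4.44%, counting error only) against 3.09% to 3.22%, a gap of 0.901. These 3 values come from 1 library and overlap in the reads they count.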

How the results depend on the processing

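No member passed the adjusted threshold in any of the 728 member values computed under alternatives; the smallest adjusted p was 0.0784, for miR-30e-3p in Xbp1 KO against Xbp1 WT cells with total counts alone (-0.39). The sign reversed in 61 of the 728. The cause was not tested for any value here. The fewest reads stood behind miR-30a-3p, 13 to 70 per library.

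Counts of microRNAs called differed more. For Xbp1 KO against Xbp1 WT cells (6) there were 15 without a filter, 18 by DESeq2, 3 after thinning, 11 with the compared groups alone, and 2 to 9 leaving out a library. For compound-deficient against WT cells (15) there were 24 with upper-quartile scaling, 24 by DESeq2, 6 with the compared groups alone, and 5 (without compound-deficient replicate 3) to 23 (without Ire1Xbp1 WT replicate 4). For the difference of the changes (0) there were 3 with upper-quartile scaling, 2 without a filter, 1 by DESeq2, and 0 leaving out any library. For compound-deficient against Xbp1 KO cells (19) there were 32 by DESeq2, 11 by limma on the deposited log2 values, 3 with total count as a covariate, 7 with the compared groups alone, and 0 (without Xbp1 KO replicate 1 or 2) to 21. For the WT groups (0) there were 14 without a filter, 4 by DESeq2, 2 with the compared groups alone, and 0 to 2 leaving out a library.

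Whether the replicate number pairs the samples was not settled, since 4 correlations are too few to decide it. Deviations of same-numbered compound-deficient and WT libraries correlated at 0.11, -0.26, 0.26 and 0.01. Of the 4 compound-deficient libraries, 1 correlated best with the WT library of its own number. With the replicate block 4 microRNAs were called there and 9 between the deficient genotypes (block added after seeing the data), and miR-30d-5p was at -0.0015 in compound-deficient against WT cells.

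Signs reversed at these log2 values. For compound-deficient against WT cells miR-30d-5p was at -0.046 with a 10 CPM filter, -0.0086 with the compared groups alone, -0.0062 without a filter, -0.055 after thinning, -0.086 with total counts alone and -0.25 with upper-quartile scaling, which also gave -0.14 for miR-30c-5p and -0.045 for miR-30e-3p. For Xbp1 KO against Xbp1 WT cells upper-quartile scaling gave 0.0052 for miR-30d-5p and 0.0049 for miR-30e-5p. For the difference of the changes it gave -0.31 for miR-30a-5p, -0.26 for miR-30d-5p and -0.30 for miR-30e-5p; miR-30a-5p was at -0.011 by limma on the deposited log2 values and -0.050 after thinning, and miR-30e-5p at -0.011 with total count as a covariate. For compound-deficient against Xbp1 KO cells miR-30a-5p was at -0.10 with upper-quartile scaling and -0.0074 without a filter, miR-30b-5p at 0.019 with total counts alone, and, with total count as a covariate, miR-30e-5p at -0.0054 and miR-30a-3p at -0.033. Between the WT groups miR-30a-5p was at -0.027 without a filter. Upper-quartile scaling moved the median of all microRNAs to -0.24, -0.36, -0.11 and 0.15 in compound-deficient against WT cells, the difference of the changes, the deficient genotypes and the WT groups.

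Leaving out 1 library reversed further signs. In compound-deficient against WT cells miR-30a-5p ranged over -0.32 to 0.11, miR-30b-5p -0.22 to 0.015, miR-30c-5p -0.16 to 0.24, miR-30d-5p -0.17 to 0.10 and miR-30e-5p -0.23 to 0.080. In the difference of the changes miR-30a-5p ranged over -0.20 to 0.24, miR-30c-5p -0.31 to 0.12, miR-30d-5p -0.038 to 0.23 and miR-30e-5p -0.10 to 0.22. In compound-deficient against Xbp1 KO cells miR-30a-5p ranged over -0.073 to 0.28, miR-30b-5p -0.19 to 0.016, and the log2 arm ratio -0.51 to 0.11 at Mir30a and -0.11 to 0.046 at Mir30e. Between the WT groups miR-30a-5p ranged over -0.11 to 0.28, and in Xbp1 KO against Xbp1 WT cells miR-30c-5p over -0.035 to 0.25. Without the most abundant microRNA the family's share of reads was 5.69% in compound-deficient, 6.13% in Ire1Xbp1 WT, 5.13% in Xbp1 KO and 5.32% in Xbp1 WT cells. A limma test of arm ratios over all hairpins was not run, since arms could not be paired by identifier.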
